A study of Rattus norvegicus with 6 samples.

Results

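The 78 circular RNA (circRNA) probes described here read higher in every hypoxic rat lung than in any normoxic one by a clear margin. They were chosen by measured values from 10911 probes that were well above background on all 6 arrays, out of 14145 circRNA probes on the array. The value of a probe was its log2 processed signal after the 75th percentile of the same array had been subtracted, and a probe was taken when its lowest hypoxia value exceeded its highest normoxia value by 0.4 or more, which is 1.32-fold. That margin is called the gap below. The rule fixes the direction and the separation of the groups, so both are descriptions of how the set was made and are given without a test.

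The lungs came from male rats aged 6 weeks that were kept in normoxia or in 10% oxygen for 21 days, and 3 arrays were run for each condition. All lungs were rinsed of blood by perfusion, and all RNA was digested with RNase R, amplified from random primers and labelled with Cy3 for a one-colour array. The exposure serves as a model of pulmonary arterial hypertension, with a ventilated chamber as its source of low oxygen. The strain is not given in the sources used here, and the labels do not say that each array stands for its own animal, so the spread between arrays may be technical, n counts arrays, and a lung below means the RNA on 1 array. Whole lung was profiled, so more cells of a type and more RNA per cell cannot be told apart.

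A circRNA is made when the spliceosome joins the end of an exon back to the start of the same or an earlier exon, which closes the RNA into a ring. Having no free ends, it resists RNase R and many cellular exonucleases and tends to outlive the linear messenger RNA of its gene, and arrays of this kind place the probe across the junction that only the ring contains. In lung, low oxygen narrows the small pulmonary arteries at once and thickens their walls with muscle and matrix over weeks, which is why the exposure is used as a model. The files give each probe an identifier and pair it with neither a host gene nor a sequence, so the circRNAs appear below by identifier, without a role. Of the 82 linear probes on the array, 39 could be given a gene symbol. None of these stood for any of 39 marker genes of lung, immune, blood and heart cells. The remaining linear probes were not identified, so the tissue was not checked against its markers.

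Each array had from 11287 to 12266 circRNA probes well above background, and its 75th percentile ranged from 92.6 signal units on normoxia 3 to 171.4 on normoxia 2. No circRNA spot was saturated. The median local background was 20 on every normoxia array, 19 on hypoxia 1 and 18 on hypoxia 2 and 3, and it thus moved with the groups. At the spots of the 78 it was 20.75, 20.75 and 19 on normoxia 1 to 3. On hypoxia 1 to 3 it was 19, 18.25 and 18 there, so normoxia 3 equalled hypoxia 1. When no background was subtracted, 34 of the 78 kept a gap of 0.4 or more. The median difference of the 78 fell from 0.83 to 0.65. Their groups did not overlap in 69 of the 78, beside 8.65% of the 10911 probes with hypoxia higher. Background left in a signal shrinks log2 differences even where it is equal in both groups. The fall therefore does not measure the part of the group background, which was not tested. The position in the file headers puts the 3 normoxia arrays and hypoxia 1 in row 1 of the slide and hypoxia 2 and 3 in row 2. Limma fits a linear model per probe, and its calls here are at an adjusted p under 0.05. With slide row as a block it called 0 of the 78 and 8 of all 12024 circRNAs higher. A fit of row 1 alone gave the 78 a median difference of 0.84, whose sign the rule fixes. In both fits the oxygen effect rests on hypoxia 1, and the part of the slide row in the result was not tested further. The 27 linear transcript probes with every spot above background on all arrays had median values of -0.91, -0.81 and -0.72 on normoxia 1 to 3 and -1.15, -0.88 and -0.94 on hypoxia 1 to 3, so their groups overlapped.

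The same rule was applied to the other ways of parting the 6 arrays 3 against 3. There are 9 of these, or 18 when each direction is counted on its own. They gave from 1 to 295 probes per direction, with a median of 5, and 1 of the 18 exceeded 78. That one set normoxia 2, hypoxia 2 and hypoxia 3 above normoxia 1, normoxia 3 and hypoxia 1, and it found 295 probes. The next 3 gave 69, 57 and 46 probes. With both directions added, the real grouping gave 156 probes, 78 higher and 78 lower, while the other 9 gave from 3 to 352 with a median of 22. The positive control probe eQC-41 followed the grouping that gave 295: its log2 signal was 10.74, 11.08 and 9.50 on normoxia 2, hypoxia 2 and hypoxia 3, against 5.48, 8.14 and 9.02 on normoxia 1, normoxia 3 and hypoxia 1. Between the oxygen groups the control probe overlapped. No other control probe was examined, and a link between eQC-41 and the 295 probes was not tested. By non-overlap alone, with no minimum gap, the real grouping had 1100 probes higher in hypoxia, and the other 18 had from 103 to 1514. These counts describe the 6 arrays and are no test.

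Among the 78, the median gap was 0.50 on the log2 scale, or 1.41-fold, and the largest was 1.36. Of the 78, 39 had gaps below 0.5 and 19 had gaps of 0.6 or more. The difference between the group means was wider than the gap by construction, with a median of 0.83, or 1.78-fold, and a range from 0.49 to 4.05. In all, 76 of the 78 differed 1.5-fold or more between means, 17 differed 2-fold or more and 1 differed 4-fold or more. Over all 12024 circRNAs tested the median difference was -0.020. Values of single circRNAs are given below in log2 units relative to the 75th percentile of the array, in the order normoxia 1, 2, 3 and then hypoxia 1, 2, 3.

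The widest gap belonged to ASCRPR010205, which read 0.24, -0.11 and -0.058 in normoxia and 1.97, 1.60 and 1.79 in hypoxia. In processed signal this was 120.7, 158.7 and 89.0 units against 627.0, 508.6 and 438.5, so the lowest hypoxic lung stood 2.57-fold above the highest normoxic one. Normoxia had a mean of 0.024 ± 0.19 and hypoxia one of 1.79 ± 0.18 (SD, n = 3), a 3.4-fold difference, with the 3 lungs of each group close together. ASCRPR010377 was next with 0.46, 0.94 and 0.93 against 2.40, 2.34 and 2.12, a gap of 1.18 and a 2.85-fold difference between means. Normoxia 1 was its lowest lung, and the other normoxic lungs lay near each other. ASCRPR010750 read -0.26, -0.29 and -0.25 against 0.80, 0.95 and 0.75. Its normoxic lungs agreed within 0.043, so nearly all of its 2.15-fold difference lay in the gap, which was 1.002. These 3 were the members whose groups were parted by 2-fold or more.

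Of the next 3, ASCRPR013954 was a dim circRNA, with -1.87, -2.24 and -2.15 against -0.51, -0.99 and -0.70. It had a gap of 0.88 and a 2.55-fold difference between means. ASCRPR000961 was bright, with 1.66, 1.62 and 2.02 against 2.92, 2.91 and 2.90, and its 3 hypoxic lungs agreed more closely than those of any other member (SD 0.0099). Its gap was 0.87 and its means differed 2.20-fold. ASCRPR009068 read -1.44, -1.18 and -1.42 against -0.23, -0.42 and -0.38, a gap of 0.76 and a 2.01-fold difference.

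ASCRPR006768 had the largest difference between means, 16.5-fold, and that value rests on an uneven control group. It read 1.27 in normoxia 1 and -3.30 and -3.25 in normoxia 2 and 3, against 2.45, 2.41 and 2.01 in hypoxia. In processed signal the normoxic lungs gave 246.9, 17.5 and 9.7 units and the hypoxic ones 874.1, 889.8 and 511.1. One normoxic lung thus carried the circRNA at a level much nearer to the hypoxic lungs than to the other normoxic ones, and the gap of 0.74 to that lung is 1.67-fold. Its normoxia SD of 2.63 was the largest in the set.

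Among the 10 widest gaps, the remaining 3 members had means that differed just under 2-fold. ASCRPR005897 read -1.69, -2.0 and -1.83 against -0.81, -0.84 and -0.96, a gap of 0.73. ASCRPR003695 read 0.78, 0.56 and 0.92 against 1.83, 1.64 and 1.67, a gap of 0.72. ASCRPR003592 was far dimmer, at -2.73, -3.07 and -2.92 against -1.87, -2.06 and -1.95, with a gap of 0.67. The 3 spanned much of the range of levels in the set, and in each of them hypoxia 1 was the highest lung and normoxia 2 the lowest.

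By difference between means, ASCRPR009828 and ASCRPR001822 also ranked among the first 6. ASCRPR009828 read -1.13, -1.13 and -2.02 against -0.48, 0.33 and -0.036, a 2.57-fold difference with SDs of 0.52 in normoxia and 0.41 in hypoxia. ASCRPR001822 read 1.20, 0.30 and 0.62 against 2.11, 1.67 and 2.27, a 2.48-fold difference with a gap of 0.47. In both, the lungs of each group spanned a wider range than the gap between the groups. A further 7 members that differed 2-fold or more, singled out after their values were seen, were ASCRPR008795, ASCRPR013962, ASCRPR001233, ASCRPR001057, ASCRPR000996, ASCRPR009844 and ASCRPR000872, with differences from 2.0-fold for ASCRPR008795 to 2.43-fold for ASCRPR009844. ASCRPR000872 read -2.37, -1.20 and -2.16 against -0.59, -0.78 and -0.70, so normoxia 2 alone came within 0.42 of the lowest hypoxic lung.

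The members covered a wide range of abundance. Their mean level over the 6 arrays ran from -2.93 to 2.89 with a median of -0.32, against a median of -0.77 over the 10911 probes that could have been chosen, whose levels reached 10.56. With those 10911 probes ranked by level and cut into 4 bins of equal size, the set had 10 members in the dimmest bin, 19 in the next, 23 in the third and 26 in the brightest. The 78 probes lower in every hypoxic lung by the same rule lay the other way, with 32, 15, 16 and 15. The gap rule is harder to meet where the arrays of a group spread widely, so these counts are given without a test. The highest member stood at the 95.7th percentile of level, and no probe brighter than that was in the set.

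The brightest member, ASCRPR000903, read 2.38, 2.68 and 2.43 against 3.25, 3.33 and 3.30, a 1.74-fold difference. In processed signal its lungs gave from 499.6 to 1095.3 units in normoxia and from 1244.5 to 1690.7 in hypoxia. ASCRPR013012 read 2.07, 2.40 and 2.06 against 2.89, 2.90 and 2.93, and ASCRPR013540 read 1.59, 1.83 and 1.86 against 2.58, 2.52 and 2.36. In these 3 the hypoxic lungs differed less among themselves than the normoxic ones. ASCRPR013687, the fifth brightest, had a wider spread: it read 1.86, 1.16 and 1.30 against 3.13, 2.50 and 2.31, with an SD of 0.43 in hypoxia, the largest of the set in that group.

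At the dim end, ASCRPR008559 read -3.38, -3.23 and -3.25 against -2.71, -2.26 and -2.78, which is 9.8, 18.2 and 9.8 signal units against 24.5, 35.0 and 18.4. ASCRPR001387 read -3.44, -2.82 and -2.85 against -2.05, -2.17 and -2.40. ASCRPR011491 read -2.86, -3.08 and -3.0 against -2.19, -2.13 and -2.28. For the dimmest of them, ASCRPR008559, the signal units of normoxia 2 and hypoxia 3 nearly coincided before the arrays were brought to a common scale. The smallest processed signal of any member on any array was 9.39 units.

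ASCRPR003080, ASCRPR005514 and ASCRPR001841 were the tightest members by the sum of their group SDs, with gaps of 0.51, 0.40 and 0.56. A wide gap did not exclude tight groups: ASCRPR010750, with a gap of 1.002, had a sum of 0.1252, against 0.1246 for ASCRPR001841. ASCRPR003080 read -2.47, -2.44 and -2.47 against -1.83, -1.94 and -1.84, with SDs of 0.017 in normoxia and 0.058 in hypoxia and a 1.51-fold difference. ASCRPR005514 read 0.079, 0.0065 and 0.042 against 0.48, 0.51 and 0.61, a 1.40-fold difference that was the smallest in the set. ASCRPR001841 read -0.60, -0.69 and -0.66 against 0.074, -0.036 and 0.12, a 1.62-fold difference. Small steps between means could thus meet the rule where the lungs of a group barely differed. In 7 of the 78 both group SDs were under 0.1, and in 7 others a group SD exceeded 0.5.

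The values ran without a break across the threshold. Just inside it were ASCRPR001743 with a gap of 0.4002, ASCRPR012359 with 0.4025 and ASCRPR005514 with 0.4045. ASCRPR001743 read -0.21, 0.21 and -0.30 against 0.69, 0.80 and 0.61, and ASCRPR012359 read -3.20, -2.55 and -2.79 against -2.15, -1.91 and -1.98. Just outside were ASCRPR009171 with 0.3995, ASCRPR001804 with 0.3982 and ASCRPR009157 with 0.3979. ASCRPR009171, at 3.82, 4.08 and 3.87 against 4.47, 4.60 and 4.54, was brighter than every member. The 54 members not described by the naming rule had gaps from 0.41 to 0.67 (median 0.48), mean levels from -2.35 to 1.92 and differences from 1.44-fold to 2.43-fold (median 1.77-fold).

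Hypoxic lungs were more alike than normoxic ones within the set. The median SD of a member was 0.11 in hypoxia and 0.20 in normoxia, against 0.21 and 0.27 over the 10911 probes, and in 54 of the 78 the range in normoxia exceeded that in hypoxia. The rule favours small spreads in both groups, so the lower values carry no test. In 49 members the range within each group was smaller than the gap between them. In 27 the normoxia range exceeded the gap, and in 8 the hypoxia range did. The array medians over the 78 were -0.69, -0.54 and -0.71 in normoxia and 0.072, 0.091 and 0.12 in hypoxia, so the 3 hypoxic arrays shared nearly the same middle and normoxia 2 stood nearest to them. Over all 10911 probes the array medians lay between -0.79 and -0.73 in both groups.

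Normoxia 2 set the gap more often than any other control. It was the highest normoxic lung in 44 of the 78 (56.4%) and in 35.0% of the 10911 probes, normoxia 1 in 23 members (29.5%, against 43.7%) and normoxia 3 in 11 (14.1%, against 21.3%). The lowest hypoxic lung was hypoxia 1 in 28 members, hypoxia 2 in 25 and hypoxia 3 in 25, an even distribution, while over the 10911 probes hypoxia 2 was lowest in 47.8%. Taking the lungs by their shared number, the median difference of the 78 was 0.89 for pair 1, 0.70 for pair 2 and 0.88 for pair 3, and pair 2 was the smallest of the 3 in 38 members. Without normoxia 2 the rule found 549 probes in place of 78, against from 116 to 169 when any other array was left out, and dropping an array can only widen a gap, so these larger counts are fixed in direction by the rule.

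Spot noise could be read from the linear transcript probes, which are printed 10 or 20 times on each array. Over 37 of them, in the 192 combinations of probe and array in which every spot was well above background, the SD among spots of a probe had a median of 0.10 (quartiles 0.073 and 0.16). The difference between 2 single spots then has an SD of 0.15 on the log2 scale. The threshold of 0.4 itself lies above 2 such SDs, so every member passes that size by its selection. The scanner software's own error of each spot gave a wider scale: the combined error of the 2 spots that set a gap had a median of 0.21. Since the gaps chose the members, neither scale is evidence for them. Each circRNA has 1 spot per array. Both scales describe the error of spots within an array, so neither includes the spread between arrays or animals.

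The linear model fit with limma over 12024 circRNAs used the same contrast as the rule, and its calls are therefore a description. At an adjusted p under 0.05, 1 of the 78 was called higher, ASCRPR010205 (1.76, SE 0.18, limma adjusted p = 0.037), and 0.00832% of all circRNAs tested were called higher. ASCRPR010377 had a limma adjusted p of 0.10 (SE 0.20) and ASCRPR010750 of 0.11 (SE 0.15). For the set as a whole the limma adjusted p ran from 0.037 to 0.32 with a median of 0.30. Unadjusted, all 78 had p under 0.05, against 5.77% of all circRNAs tested that were higher at that threshold. Groups that do not overlap, which the rule requires of every member, were seen with hypoxia higher in 10.1% of the 10911 probes.

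When the fit held a block for the replicate number, 31 members were called higher, beside 1.54% of all circRNAs tested. The limma adjusted p in that fit ran from 0.010 to 0.10 with a median of 0.051, so the count turns on values close to the threshold: 24 members lay between 0.05 and 0.06. Of the 19 members with a gap of 0.6 or more, 18 were called, and of the 39 with a gap below 0.5, 8 were. Among the 10 widest gaps 9 were called and ASCRPR006768 just missed (limma adjusted p = 0.0501). The gap and these calls use the same contrast, so more calls at wider gaps are close to fixed in advance and are no evidence. The same-numbered pairs were read from the values, so these p-values may be too small. With the block and without pair 3, limma called 0 of the 78 and 0 of all circRNAs higher. Without pair 1 it called 35 members among 298 of 11580 circRNAs higher, and without pair 2 it called 47 among 453 of 11571.

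The call of ASCRPR010205 ended when any 1 of the 6 arrays was left out, although its difference stayed between 1.67 and 1.87. The fits gave limma adjusted p from 0.051 without normoxia 2 to 0.42 without normoxia 3. Without normoxia 1 another member, ASCRPR006768, was called in its place (difference 5.56, limma adjusted p = 0.0010), since the 2 remaining normoxic lungs were both low. That was the 1 call among 11828 circRNAs with hypoxia higher. Without normoxia 2 the member called was ASCRPR000872 (1.58, limma adjusted p = 0.042), among 2 of 11765 circRNAs called higher. In spot medians with no background correction 4 of 12024 circRNAs were called higher, all of them members: ASCRPR010205, ASCRPR010377, ASCRPR010750 and ASCRPR000961. In the deposited log2 values 2 of 12024 were, ASCRPR010205 and ASCRPR010750 (limma adjusted p = 0.047 and 0.028). The calls moved from one member to another with the arrays and values used, and ASCRPR000872, with a gap of 0.42, was among the members nearest the threshold of the rule.

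A gap of 0.4 or more was lost under other scales more often than the order of the groups. The rule favours this outcome, since many gaps lay just above 0.4 and overlap takes a shift of at least 0.4. Under 6 other ways of computing the values, 65 of the 78 had groups that did not overlap in each, and 8 also had a gap of 0.4 or more in each: ASCRPR010205, ASCRPR010377, ASCRPR010750, ASCRPR000961, ASCRPR009068, ASCRPR006768, ASCRPR003695 and ASCRPR009828. Over the 10911 probes the share with groups apart and hypoxia higher ranged from 6.51% to 12.2% in these settings. All 78 stayed apart with quantile normalization, with the array median as the scale, with the percentile over detected probes and in the deposited values. The array median and this percentile shift every value of an array by the same amount, so the order there largely follows from the rule. Of the 13 that overlapped in some setting, 9 were in the dimmest of the 4 bins of level and 2 in the next, with ASCRPR003592, ASCRPR003080 and the 3 dimmest members among them. The rule was met by 71 of the 78 with quantile normalization, by 34 in spot medians with no background correction, by 31 in the deposited values and by 10 under normexp correction with an offset of 50. In the last 3 settings the median difference of the 78 was also smaller, at 0.65, 0.62 and 0.52, against 0.83. An offset added to a signal, or background left in it, shrinks log2 differences, most in dim spots. A gap of 0.4 is thus a stricter cut under normexp and in the uncorrected spot medians.

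Set beside the 78 probes that were lower in every hypoxic lung, the members showed smaller steps. The median gap was 0.50 here and 0.51 there, but the largest was 1.36 against 4.17, and 3 members here reached a gap of 1 against 9 there. A difference of 2-fold or more between means was seen in 17 of the 78 higher and in 38 of the 78 lower probes, whose median difference was -0.97. Both sets were chosen by their values, so no test of this contrast was made.

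Position on the array and numbering of the probes were not used by the rule. Cut into 4 bands of equal width, the 192 spot rows held 14, 22, 22 and 20 members, and the 82 columns held 28, 18, 14 and 18. A single pair, ASCRPR008795 and ASCRPR011133, lay on touching spots. The share of the 10911 probes in each band was not computed, so the band counts show neither clustering nor an even spread. No member carried an outlier flag on any array, against 21 of the 10911 probes. There were 2 pairs of members with consecutive identifiers. ASCRPR006267 and ASCRPR006268 differed between means by 0.66 and 0.94, with mean levels of -1.33 and -1.64. ASCRPR013687 and ASCRPR013688 differed by 1.21 and 0.91 although the first was far brighter, with mean levels of 2.04 and -0.34. Both circRNAs of the second pair were highest in hypoxia 1 and, among the controls, in normoxia 1. The files do not say what the numbering follows, and over the 8485 consecutive pairs among the 10911 probes the median correlation across the 6 arrays was 0.098. The 112 probes next in number to a member that were not members themselves had a median difference of 0.014, and 59 of them (52.7%) were higher in hypoxia, beside 48.0% of the 10911 probes.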

How the data were processed

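The authors deposited scanner files that hold, per the file headers, intensity values from version 11.0.1.1 of Agilent's Feature Extraction, with the background subtracted and a spatial trend removed within each array, its error estimates and other spot flags of 0 or 1. A further table deposited by the authors holds log2 values for the same arrays; how its background was treated is not given in the sources used here. The limma package is also listed in the submitters' processing notes. The headers name the build rn4, and no coordinates were used.

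Each array's 75th percentile over non-control spots was subtracted on the log2 scale. Of 14145 circRNA probes, the 12024 above background on 3 arrays or more entered a two-sided limma fit (limma 3.58.1, R 4.3.3). It used lmFit and eBayes, with p adjusted by Benjamini-Hochberg over all of them. The code was run on simulated data with independent arrays and known shifts. Those data held no slide row or replicate structure, so that run does not check the fit for the real arrays. Precision is limited by the 3 arrays per group. Members and lists were chosen with earlier results of these data known. Circular RNAs were named by rank: 10 by gap, 6 by difference, 5 brightest, 3 dimmest, 3 tightest, 3 on each side of the threshold, and those called. The labels number the arrays 1 to 3 in both groups without saying what the number marks. Same-numbered arrays deviated together from their group means (r across circRNAs of 0.55, 0.71 and 0.21, all above 0.1; differently numbered ones ranged from -0.64 to 0.18, the highest being hypoxia 3 with normoxia 1), so the numbers were taken to pair them, on the evidence of the values. Alternatives covered background correction, scaling, deposited values, detection filter, gap, prior, array weights, slide row, the block and each array left out.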

Additional observations from a re-analysis of the deposited data

How the results depend on the processing

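The slide row fits and the blocks without a pair were added after seeing the data. A slide row with more than 1 array of both groups, as planned for a block, did not occur. The count of 78 became 13 under normexp with an offset of 50, 36 in uncorrected spot medians, 34 in the deposited values, 176, 39 and 20 at gaps of 0.3, 0.5 and log2 of 1.5, 493 when paired as the replicate block pairs the arrays (the smallest same-numbered difference at 0.4 or more), and 116 to 549 with 1 array left out, where fewer arrays have to be parted. It stayed within 1.5 times under the other scalings and detection filters. The 1 member called by limma became 0 under normexp, quantile normalization and no filter on dim probes, where 0 of all circRNAs were called higher. With slide row as a block the count also became 0, beside 8 of 12024 circRNAs called higher. The oxygen effect there, and in slide row 1 alone (median difference 0.84), rests on hypoxia 1. The count of members called became 4 in uncorrected spot medians, 2 in the deposited values and 2 with an intensity trend and robust prior. In these settings the members were the only circRNAs called higher of 12024. With the replicate block 31 members were called among 185 of 12024. Without pairs 1, 2 and 3 the block gave 35, 47 and 0 members among 298, 453 and 0 circRNAs. Array weights gave 78 members among 2397 of 12024 and rested on normoxia 3 and hypoxia 3 (weights 5.08 and 6.24). With 1 array left out, 0 to 1 members were called among 0 to 2 circRNAs. The median difference of 0.83 became 0.52 under normexp, 0.65 in uncorrected spot medians and 0.62 in the deposited values, and was within the spread between arrays (0.066) elsewhere. Of 552 values of the 24 named members under alternatives, 58 moved by over 1 SD, and the rule fixes the sign of most of them. Depth limits the dimmest members most, whose signal fell to 9.39 units over a local background near 20.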
